A study of Mus musculus with 8 samples.

Results

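Car3, Ckm, Ckb, Ckmt2, Pygm, Ampd1, Adssl1, Mb, Eno3 and Pgam2 are 10 genes of energy supply in muscle, and they were followed by their symbols through the raw counts of 42391 gene entries. They were chosen by name, and in part because Car3 had been seen to rise after Septin9 siRNA in both cell types of the study, so the values of the 10 genes after Septin9 siRNA are given as a description and without a test. RNA was sequenced from mouse myoblasts transfected with a non-targeting siRNA (the controls, labelled WT) or with an siRNA against Septin9, a subunit of the septin cytoskeleton (labelled Septin 9 KD). C2C12, an established mouse myoblast line, was transfected at 50 nM siRNA (more concentrated for the first hours), kept in differentiation medium for the last 12 h and lysed 60 h after transfection. Primary myoblasts (labelled pMb) came from the hindlimb muscle of mice aged 5 weeks by pre-plating on collagen, were kept proliferating on Matrigel in a medium with FGF and chicken embryo extract, and were lysed 48 h after transfection. Each of the 4 groups had 2 replicates, which came from 2 independent experiments, and the 8 samples were polyA-selected bulk RNA. In such samples fewer expressing cells and less RNA per cell cannot be told apart. Cell type, medium, differentiation and time after transfection changed together between C2C12 and primary myoblasts and cannot be told apart.

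Contracting muscle spends ATP faster than respiration can replace it, and these genes belong to the systems that bridge the gap. Creatine kinase moves phosphate between creatine and ATP, with a muscle form (Ckm), a brain form that is also present in myoblasts (Ckb) and a sarcomeric mitochondrial form (Ckmt2). AMP deaminase (Ampd1) and adenylosuccinate synthase (Adssl1) are muscle forms of enzymes of the purine nucleotide cycle, which removes AMP and returns it. Pygm, glycogen phosphorylase of muscle, releases glucose phosphate from glycogen, and Pgam2 and Eno3 are the muscle forms of phosphoglycerate mutase and enolase in lower glycolysis. Mb encodes myoglobin, which stores oxygen, and Car3 encodes carbonic anhydrase 3, a cytosolic enzyme of slow muscle fibres and fat cells with low activity on carbon dioxide. Many muscle genes switch from a general to a muscle form when myoblasts differentiate, under the Myod1 and Mef2 families of transcription factors, which bind E-boxes and Mef2 sites.

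Promoter sequences are shown for 4 of the genes because they hold matches to motif patterns of these factors and differ in which pattern they match. The stretches are RefSeq sequences of GRCm38.p6, 250 bases before to 50 bases after the start of the gene, 5′ to 3′ on the strand of the gene, and capitals mark a match to the muscle E-box CAGCTG or, in Ckb, to the Mef2 core CTA, 4 bases of any kind, and TAG. Ckm is at chr7:19410844-19411143 on the plus strand, Pygm at chr19:6384158-6384457 on the plus strand, Pgam2 at chr11:5803747-5804046 on the minus strand and Ckb at chr12:111672289-111672588 on the minus strand.
Ckm: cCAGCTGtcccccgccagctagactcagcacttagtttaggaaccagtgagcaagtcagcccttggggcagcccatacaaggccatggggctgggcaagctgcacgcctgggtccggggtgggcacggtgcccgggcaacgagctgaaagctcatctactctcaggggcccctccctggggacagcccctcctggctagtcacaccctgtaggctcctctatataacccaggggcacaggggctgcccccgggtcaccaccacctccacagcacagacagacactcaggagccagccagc
Pygm: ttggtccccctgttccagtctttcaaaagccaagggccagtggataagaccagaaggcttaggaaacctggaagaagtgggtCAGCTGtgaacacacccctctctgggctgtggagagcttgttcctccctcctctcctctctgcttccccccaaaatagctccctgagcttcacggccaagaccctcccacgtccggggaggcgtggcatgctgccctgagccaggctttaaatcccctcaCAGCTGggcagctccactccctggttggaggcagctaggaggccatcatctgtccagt
Pgam2: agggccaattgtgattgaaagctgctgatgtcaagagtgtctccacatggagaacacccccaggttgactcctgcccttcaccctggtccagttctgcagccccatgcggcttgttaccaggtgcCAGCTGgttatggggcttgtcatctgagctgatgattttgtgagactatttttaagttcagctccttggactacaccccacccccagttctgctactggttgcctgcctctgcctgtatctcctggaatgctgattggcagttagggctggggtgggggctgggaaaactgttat
Ckb: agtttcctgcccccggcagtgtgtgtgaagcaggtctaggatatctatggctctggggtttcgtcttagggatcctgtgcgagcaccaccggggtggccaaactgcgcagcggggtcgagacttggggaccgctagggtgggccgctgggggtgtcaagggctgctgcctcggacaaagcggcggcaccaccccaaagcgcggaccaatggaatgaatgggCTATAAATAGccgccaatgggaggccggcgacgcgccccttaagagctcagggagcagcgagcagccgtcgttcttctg
The table of promoters held 8 of the 10 genes, and Car3 and Ampd1 were not matched. CAGCTG, which reads the same on both strands and is 1 form of the E-box CANNTG, was found for 5 of the 7 genes with a single window (Ckm, Ckmt2, Pygm, Eno3 and Pgam2), whereas 16.3% of all 32851 promoters hold it. Pygm held it at positions -168 and -8 from its start, Pgam2 at -125, and Ckm at -249, at the outer edge of the window, and Mb, with 3 windows, held 1 such site in the 2 that overlap and none in the other. The promoters of Ckb and Adssl1 held no CAGCTG in this window. They were the ones with a match to the Mef2 core pattern as written above, at -29 and -242, which 3.69% of all promoters match. The 4 bases of any kind were TAAA in Ckb, all A or T, but GTCC in Adssl1. The pattern is strict at its last base, a G. The printed Pgam2 stretch holds ctatttttaa, which differs from the pattern only in ending in A and was not counted. Whether Pgam2 or other promoters hold Mef2 sites outside this pattern was not tested. The general E-box CANNTG was found for 6 of the same 7 genes against 72.3% of all promoters, and the SRF box (CC, 6 of A or T, GG) for 0 of 7 against 1.63%. These matches describe the letters and are not evidence of binding.

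Between 20898611 and 27223414 reads were counted per sample. Septin9 itself was at 409 and 435 CPM (counts scaled to equal library size with TMM factors) in the C2C12 controls and at 147 and 185 CPM after its siRNA (log2 fold change -1.36 ± 0.08 SE, adjusted p = 5.11e-09 by edgeR). In primary myoblasts it was at 375 and 473 CPM in the controls and at 208 and 159 CPM after the siRNA (-1.21 ± 0.15, adjusted p = 0.000134). The myoblast label was met in every sample, with the summed level of 7 myoblast markers between 948.7 and 7560 CPM. The summed levels of 5 endothelial and 5 macrophage markers did not pass 4.77 and 4.38 CPM. Those of 5 smooth muscle and pericyte markers (31.8 to 144 CPM) and 5 Schwann cell markers (29.8 to 113 CPM) were higher. Across all genes tested with edgeR, the siRNA changed 1.57% in C2C12 and 3.17% in primary myoblasts (adjusted p under 0.05 and at least 1.5-fold, the meaning of "called" throughout).

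**Figure D1:**
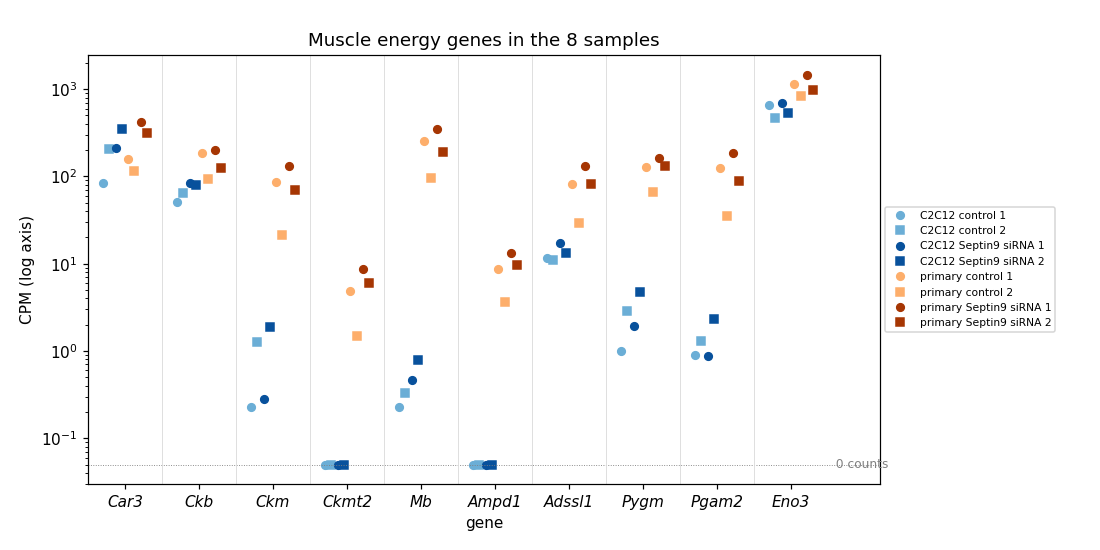
CPM of the 10 genes in each of the 8 samples on a log axis, with colours for cell type and siRNA, circles for replicate 1 and squares for replicate 2, and a dotted line for samples with 0 counts. Car3 lies in the same range in both cell types (83.5 to 423 CPM), Ckm, Mb, Pygm and Pgam2 are far lower in C2C12, and Ckmt2 and Ampd1 have 0 counts in all 4 C2C12 samples.

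Car3 stood apart from the other genes in that its level was alike in the controls of both cell types. It was at 83.5 and 204 CPM in the C2C12 controls and at 159 and 116 CPM in the primary myoblast controls, so the 2 groups overlapped. The log2 fold change between control primary myoblasts and control C2C12 was -0.06 ± 0.45 (SE, n = 2 per group, adjusted p = 0.930 by edgeR), and an error of this size leaves room for a difference of more than 1.5-fold in either direction. The sign of this value also turned when a library was left out, to 0.71 without C2C12 control replicate 2 and 0.15 without primary myoblast control replicate 2.

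Of the other 9 genes, 8 were called higher in control primary myoblasts, against 33.3% of all genes called in either direction and 17.5% called higher. Ckmt2 and Ampd1, counted among them, had 0 reads in C2C12 and entered the fit only through their primary myoblast reads. Their direction was thus fixed beforehand, and their calls are a description. Myoglobin showed the widest gap among the genes with reads in C2C12. Mb was at 0.228 and 0.331 CPM in the C2C12 controls, from 5 and 9 reads, and at 257 and 95.4 CPM in the primary myoblast controls (log2 fold change 9.26 ± 0.75 SE, adjusted p = 0.00433).

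Pygm and Pgam2, of glycogen breakdown and lower glycolysis, also lay far apart. Pygm was at 1.00 and 2.87 CPM in C2C12 and 127 and 66.3 CPM in primary myoblasts (log2 fold change 5.62 ± 0.63, adjusted p = 0.00688). Pgam2 was at 0.9099 and 1.29 CPM against 124 and 35.1 CPM (6.17 ± 0.78, adjusted p = 0.00856). In neither gene did the groups overlap, and in both genes replicate 1 was the higher of the primary myoblast controls.

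Among the creatine kinases, the muscle form set the cell types apart far more than the brain form. Ckm was at 0.228 and 1.25 CPM in the C2C12 controls, from 5 and 34 reads, and at 86.5 and 21.3 CPM in primary myoblasts (log2 fold change 6.13 ± 1.05, adjusted p = 0.0155). Ckb was at 51.2 and 64.0 CPM against 184 and 93.5 CPM (1.28 ± 0.36, adjusted p = 0.0486). Ckmt2 had 0 reads in both C2C12 controls and 4.85 and 1.49 CPM in primary myoblasts. This was at least 23.2-fold higher with the C2C12 level set at 3 reads in the shallower library.

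The purine nucleotide cycle showed the same order. Ampd1 had 0 reads in both C2C12 controls and 8.59 and 3.68 CPM in primary myoblasts, at least 44.9-fold higher on the same floor. Adssl1 was already present in C2C12, at 11.6 and 11.03 CPM, and stood at 81.3 and 29.3 CPM in primary myoblasts (log2 fold change 2.30 ± 0.51, adjusted p = 0.0281). Eno3 did not pass the test, with 661 and 471 CPM against 1154 and 829 CPM (0.82 ± 0.26, adjusted p = 0.0676).

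These calls rested on few samples. Over all genes, too, fewer were called with any 1 control left out than the 5699 called with all controls. With C2C12 control replicate 1 left out, 2 of the 10 genes (Mb and Pygm) were called, and with C2C12 control replicate 2 left out, 0 were, although Mb then still had a log2 fold change of 9.56 (adjusted p = 0.0591). In these fits the lone C2C12 library was assumed to vary like the primary myoblast controls. Without primary myoblast control replicate 1 the count was 7, and without replicate 2 it was 8.

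Per kilobase of exon the 10 genes took a different order in each cell type. In the C2C12 controls Eno3 (325 ± 77.2 CPM per kb, SD, n = 2) was followed by Car3 (50.2 ± 29.8), Ckb (19.9 ± 3.12) and Adssl1 (5.41 ± 0.193), while Pgam2, Pygm, Ckm and Mb lay between 0.187 and 1.31 CPM per kb. In the primary myoblast controls the order was Eno3 (570 ± 132), Mb (118 ± 76.6), Pgam2 (94.5 ± 74.5), Car3 (48.0 ± 10.5), Ckb (47.9 ± 22.04), Pygm (30.0 ± 13.3), Adssl1 (26.4 ± 17.6), Ckm (18.5 ± 15.8), Ckmt2 (2.13 ± 1.60) and Ampd1 (1.73 ± 0.978). Car3 was thus the second of the 10 in C2C12 and in the middle of the order in primary myoblasts. From Mb to Ckm each gene in primary myoblasts lay within 1 SD of the next in order, and so did Ckmt2 and Ampd1. That spread includes the difference between the experiments, which these genes share, so it does not decide whether neighbours differ. Within each control the order from Mb to Ckm was the same, except that Ckb lay above Car3 in replicate 1 (63.4 against 55.4 CPM per kb). Ckmt2 and Ampd1 also changed places. In C2C12 the SDs of Car3 and Ckb met, as did those of each neighbour pair from Pgam2 to Mb. Car3 was still above Ckb in both C2C12 controls (29.2 against 17.7 and 71.3 against 22.1 CPM per kb).

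The share that the muscle form takes of each reaction, per exon length, gives the extent of the isoform switch within a sample. In C2C12 the muscle form held 0.329% to 2.32% of Ckm plus Ckb, 1.59% to 8.91% of Pygm plus Pygb and 0.422% to 1.80% of Pgam2 plus Pgam1 over the 4 samples. In primary myoblasts the same shares were 18.5% to 39.6%, 68.3% to 85.5% and 15.0% to 50.2%. For these 3 reactions the cell types did not overlap.

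In proliferating primary myoblasts the RNA of glycogen phosphorylase was thus mostly of the muscle form, and that of creatine kinase mostly of the brain form. Their controls also held more Myog (1019 and 401 CPM against 5.19 and 37.5 CPM in the C2C12 controls) and Mef2c (377 and 128 against 0.455 and 0.699 CPM). Of 13 genes of myogenic differentiation, 10 lay higher and 3 lower in the primary myoblast controls. Of these, 8 were called higher and 0 lower, beside 17.5% and 15.8% of all genes. Within C2C12 only 9 of the 13 had enough reads to be tested, and the direction of the others was set by the filter. The part of differentiation in the shares was not tested. Adssl1 held 15.5% to 22.1% of Adssl1 plus Adss in C2C12 and 26.9% to 71.1% in primary myoblasts. Ampd1 held 0% in C2C12 and 15.4% to 41.9% of Ampd1 plus Ampd3 in primary myoblasts, and 6.98% to 23.5% when set against Ampd2. For enolase the share depended on the entry, since Eno3 and Eno1 are each listed with 2 entries of different counts (the second entries were taken up after the data were seen). With the first entries Eno3 held 62.1% to 66.0% of Eno3 plus Eno1 in C2C12 and 60.3% to 72.4% in primary myoblasts, with overlap. With the first entry of Eno3 and the second of Eno1 the shares were 51.1% to 55.3% and 70.7% to 81.8%, and with both entries of each gene summed they were 50.2% to 55.1% and 60.5% to 74.8%, both without overlap. Ckmt1, the other mitochondrial creatine kinase, had at most 6 reads in any sample, and Ckmt2 held 96.9% to 100% of the pair in primary myoblasts.

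**Figure D2:**
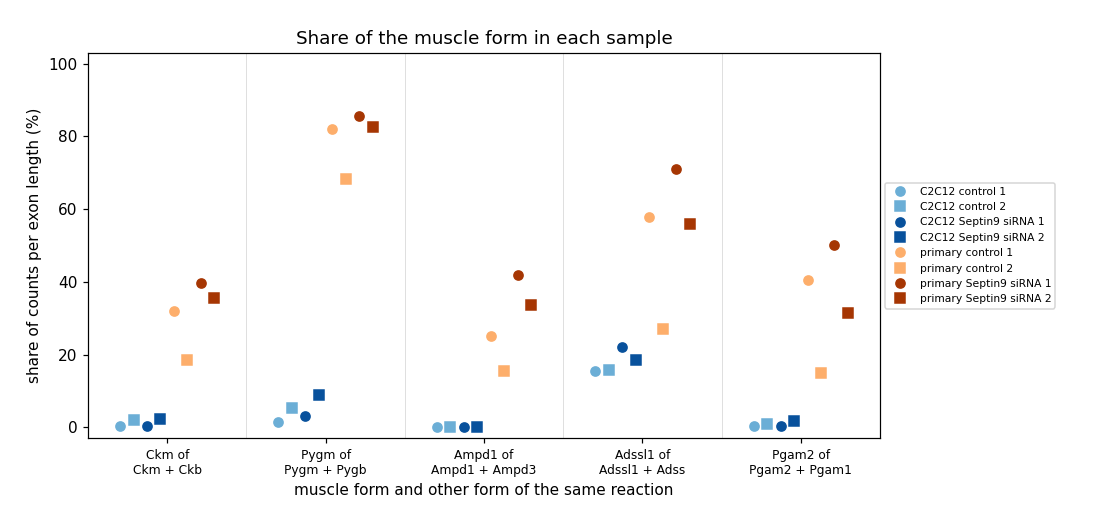
Share of the muscle form in the summed counts per exon length of the muscle form and another form of the same reaction, in percent, for each of the 8 samples (colours for cell type and siRNA, circles for replicate 1, squares for replicate 2). Primary myoblasts lie above C2C12 in all 5 reactions shown, by the least for Adssl1 (26.9% against up to 22.1%).

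In primary myoblasts all 10 genes were lower in replicate 2 than in replicate 1 in controls and after siRNA alike, and 8 of them were called lower, against 15.9% of all genes called in either direction and 7.81% called lower. Ckm (log2 fold change of replicate 2 against replicate 1 -1.43 ± 0.18 SE, adjusted p = 6.59e-06) and Pgam2 (-1.41 ± 0.15, adjusted p = 7.89e-07) differed most. Mb (-1.13 ± 0.14), Adssl1 (-1.04 ± 0.15), Ckmt2 (-0.99 ± 0.25), Ckb (-0.80 ± 0.12), Ampd1 (-0.79 ± 0.19) and Pygm (-0.60 ± 0.14) were called as well. Car3 (-0.41 ± 0.12, adjusted p = 0.0146) and Eno3 (-0.50 ± 0.14, adjusted p = 0.0134) passed the test but stayed under 1.5-fold. Without either primary myoblast control, 5 of the 8 were called (Ckm, Pgam2, Ckb, Adssl1 and Mb).

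Other genes moved along with this difference between the experiments. Myog, a driver of differentiation, had a log2 fold change of -1.04 ± 0.16 (adjusted p = 7.55e-05), Mef2c of -1.10 ± 0.17 and Myf6 of -2.50 ± 0.14. In all, 6 of 13 genes of myogenic differentiation were called lower and 0 higher, beside 7.81% and 8.05% of all genes. Of 5 smooth muscle and pericyte markers 3 were tested and called higher (Mcam 2.37, Rgs5 2.16 and Cspg4 1.26), with a summed level of 39.4 and 40.5 CPM in replicate 1 and 144 CPM in both samples of replicate 2, while Myh11 stayed at or below 0.358 CPM and Kcnj8 at or below 0.0477 CPM. The part of pericyte-like cells in the lower levels of the 10 genes was not tested.

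In C2C12 the difference between the experiments ran the other way for Car3, Ckm, Pygm and Pgam2, which made 4 called of 8 tested, against 11.3% of all genes and 5.2% called higher. Ckm was higher in replicate 2 by a log2 fold change of 2.57 ± 0.44 (adjusted p = 0.000128) on 5 to 45 reads per sample. Pygm (1.36 ± 0.25, adjusted p = 0.00025), Car3 (0.97 ± 0.09, adjusted p = 9.84e-08) and Pgam2 (0.93 ± 0.34, adjusted p = 0.0381) were also higher, and the call of Pgam2 was lost without either sample of the siRNA group. Eno3 passed the test in the other direction but under 1.5-fold (-0.46 ± 0.07, adjusted p = 6.92e-05). Ckb was at 0.08 ± 0.08, Adssl1 at -0.26 ± 0.12 and Mb at 0.66 ± 0.52, and none of these passed.

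Replicate 2 of C2C12 also had a Myog level higher by 2.31 ± 0.12 (log2, adjusted p = 2.30e-10). In it 10 of 10 proliferation markers were called lower, beside 6.1% of all genes. Their median log2 fold change was -1.04, where the median of all genes was 0.01. The labels give 12 h of differentiation for all 4 C2C12 samples. What differed between the experiments was not tested, and the same replicate number in the 2 cell types is not stated to be the same experiment.

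**Figure D3:**
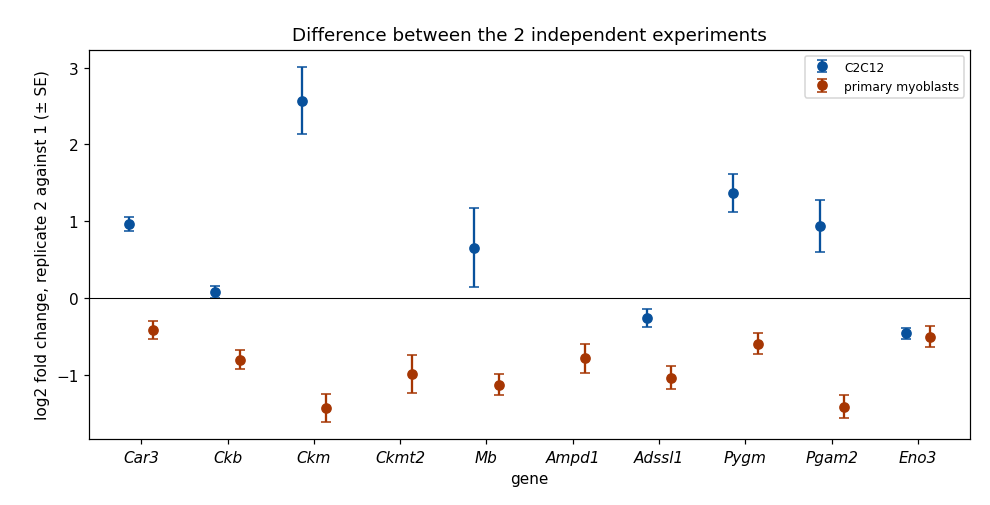
Log2 fold change of replicate 2 against replicate 1 for each of the 10 genes (points, with bars of 1 SE from the edgeR fit), in C2C12 (blue) and primary myoblasts (brown). All 10 genes lie below 0 in primary myoblasts, whereas Ckm, Pygm, Car3 and Pgam2 lie between 0.93 and 2.57 in C2C12, where Ckmt2 and Ampd1 had 0 counts and are not drawn.

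After Septin9 siRNA Car3 was higher in both replicate pairs of both cell types. In C2C12 it was at 83.5 and 204 CPM in the controls and 210 and 346 CPM after the siRNA. The controls and siRNA samples did not overlap, but control replicate 2 was nearly as high as siRNA replicate 1. The log2 difference within the pairs was 1.33 and 0.76, and the fitted log2 fold change was 1.03 ± 0.09 SE (2.04-fold).

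In primary myoblasts Car3 was at 159 and 116 CPM in the controls and 423 and 316 CPM after the siRNA, and both siRNA samples lay well above both controls. The pairs gave 1.41 and 1.44, with a fitted log2 fold change of 1.43 ± 0.12 (2.70-fold). Among the genes called higher, Car3 ranked 51 of 131 by fold in C2C12 and 52 of 492 in primary myoblasts. Carbonic anhydrase 3 is also abundant in fat cells, and the summed level of 7 fat cell markers was 8.31 to 12.6 CPM in C2C12 and 7.80 to 14.6 CPM in primary myoblasts. Pparg made up most of that sum and was above its control in both pairs in primary myoblasts (0.40 and 0.53 on the log2 scale), Adipoq did not pass 0.143 CPM, and Plin1 and Retn had 0 reads in every sample. The part of fat cells in the level of Car3 was not tested.

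Of all 10 genes, 1 of the 8 tested in C2C12 met the criteria for a call (Car3), beside 1.57% of all genes, and 8 of 10 in primary myoblasts, beside 3.17%. Because the genes were chosen with this comparison in view, nothing is read from these counts. All 10 genes were above their control in both pairs in primary myoblasts, and 7 of the 8 with reads in C2C12 (Pgam2 fell short in pair 1, at -0.04). The median log2 difference of the 10 genes in primary myoblasts was 0.61 in pair 1 and 1.36 in pair 2.

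The creatine kinases differed in the size of their response. Ckm in primary myoblasts was at 86.5 and 21.3 CPM in the controls and at 133 and 69.9 CPM after the siRNA, so the groups overlapped across the experiments although each siRNA sample was above its own control. Its pairs differed by 0.62 and 1.71 on the log2 scale (fitted 1.14 ± 0.18), and those of Ckmt2 by 0.84 and 1.95 (1.34 ± 0.25, on 1.49 to 8.77 CPM). Ckb was at 184 and 93.5 CPM in the controls and 202 and 126 CPM after the siRNA (0.29 ± 0.12).

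In C2C12 it was the brain form that had enough reads to be followed. Ckb was at 51.2 and 64.0 CPM in the controls and 84.2 and 78.8 CPM after the siRNA, without overlap (log2 fold change 0.50 ± 0.08, 1.41-fold). Ckm had 5 and 34 reads in the controls and 6 and 45 after the siRNA (log2 fold change 0.54 ± 0.39), and its groups overlapped.

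Within the purine nucleotide cycle, Adssl1 in primary myoblasts was at 81.3 and 29.3 CPM in the controls and 130 and 81.6 CPM after the siRNA (log2 fold change 1.07 ± 0.15). The siRNA sample of replicate 2 was thus at the level of the control of replicate 1. Ampd1 was at 8.59 and 3.68 CPM in the controls and 13.4 and 9.68 CPM after the siRNA (0.99 ± 0.19). In C2C12, Adssl1 was at 11.6 and 11.03 CPM in the controls and 17.3 and 13.3 CPM after the siRNA (0.42 ± 0.12).

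The muscle enzymes of glycogen and glycolysis were followed next. Pygm in primary myoblasts was at 127 and 66.3 CPM in the controls and 162 and 131 CPM after the siRNA (log2 fold change 0.67 ± 0.14), and Pgam2 at 124 and 35.1 CPM and 187 and 88.8 CPM (0.96 ± 0.14). Pygm did not overlap between controls and siRNA samples and Pgam2 did. Eno3, the most abundant of the 10 per exon length, was at 1154 and 829 CPM in the controls and 1472 and 989 CPM after the siRNA (0.31 ± 0.14).

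In C2C12, Pygm was at 1.00 and 2.87 CPM in the controls and 1.91 and 4.72 CPM after the siRNA (log2 fold change 0.79 ± 0.24). Pgam2 was at 0.9099 and 1.29 CPM and 0.885 and 2.30 CPM (0.51 ± 0.33), and Eno3 at 661 and 471 CPM and 696 and 539 CPM (0.13 ± 0.07). All 3 overlapped between controls and siRNA samples.

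Myoglobin in primary myoblasts was at 257 and 95.4 CPM in the controls and 353 and 192 CPM after the siRNA (log2 fold change 0.73 ± 0.14), with overlap across the experiments. In C2C12, Mb had 5 and 9 reads in the controls and 10 and 19 after the siRNA (1.16 ± 0.52). In primary myoblasts the difference in pair 2 exceeded that in pair 1 for 9 of the 10 genes, from 1.44 against 1.41 for Car3 to 1.95 against 0.84 for Ckmt2, and it was smaller for Eno3. Replicate 2 is the experiment in which the controls of these genes were low, and the part of that in the size of the pair was not tested.

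**Figure D4:**
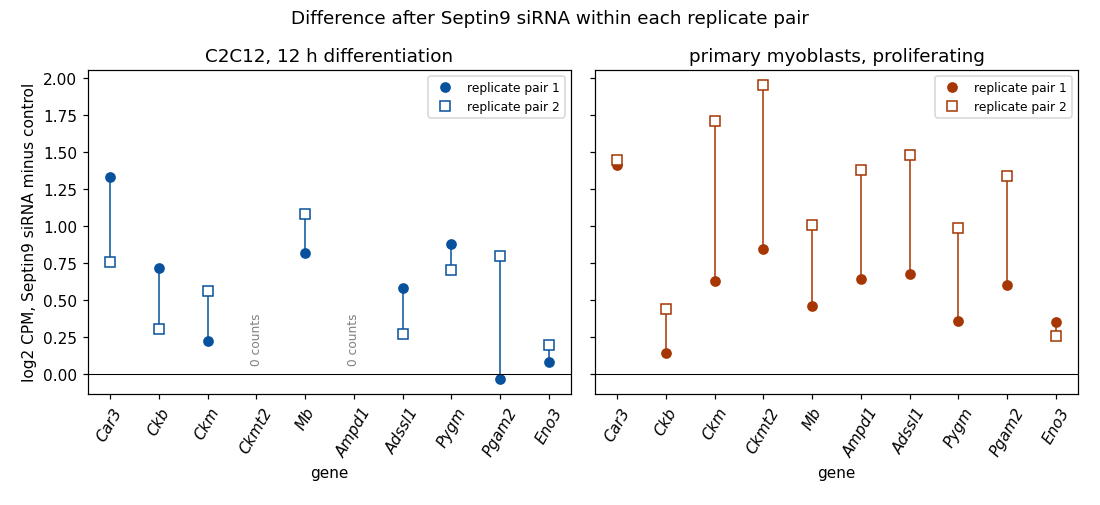
Log2 difference in CPM (with 2 counts added) between Septin9 siRNA and control within each replicate pair, for the 10 genes in C2C12 (left) and primary myoblasts (right), with filled circles for pair 1, open squares for pair 2 and a line joining them. Car3 has 1.41 and 1.44 in primary myoblasts, where most other genes have a larger difference in pair 2, and Pgam2 in pair 1 of C2C12 is at -0.04.

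In the leave-one-out fits 4 of the 8 genes (Car3, Ckm, Pgam2 and Adssl1) met the criteria in primary myoblasts without primary myoblast control replicate 2 or siRNA replicate 2, which leave pair 1, and all 8 did without either sample of replicate 1. These fits take their spread from the samples of both cell types, since 3 samples leave none of their own. The number called over all genes also moved in them, to both sides of the 543 of the main fit. Scaling by library size alone left the same 4 genes, and over all genes it left 165 called higher in place of 492. With no term for the experiment, 0 of the 10 genes met the criteria in either cell type, and 0 of all genes were called (372 in C2C12 and 378 in primary myoblasts at an unadjusted p under 0.05).

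The difference of the siRNA response between the cell types was taken from the interaction in a fit of all 8 samples. It is built from the responses that were in view when the genes were chosen, so the members' values are again a description. The interaction was called for 0% of the 17918 genes tested with edgeR, the 10 genes included, 1469 of which had an unadjusted p under 0.05, while DESeq2 called 23 genes and none of the 10. The value in primary myoblasts minus that in C2C12 was 0.39 ± 0.17 for Car3 (SE, log2), 0.64 ± 0.24 for Adssl1, 0.17 ± 0.14 for Eno3, 0.41 ± 0.42 for Pgam2 and 0.59 ± 0.62 for Ckm. It was -0.11 ± 0.29 for Pygm, -0.22 ± 0.16 for Ckb and -0.44 ± 0.53 for Mb. The errors of Ckm and Mb, which had few reads in C2C12, leave room for a difference of more than 1.5-fold in either direction.

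No fold could be set for Ampd1 and Ckmt2, which had 0 reads in C2C12 under either siRNA. The values moved with the experiment. Adssl1 was at 1.08 without either primary myoblast sample of replicate 1 and met the criteria for a call there, as did Ckm (1.18), and it was at 0.26 without either primary myoblast sample of replicate 2. The sign of the value for Pygm turned to 0.23 without either sample of replicate 1 of primary myoblasts.

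Other genes of the same pathways were counted in C2C12, where 1.57% of all genes were called. Of 7 genes tested of creatine and adenylate phosphotransfer, 6 of the purine nucleotide cycle and AMP sensing and 10 of glycogen metabolism, 0 were called in any of these lists. Of 19 genes of glycolysis and glucose uptake 1 was called, Gpi1, glucose-6-phosphate isomerase, which fell. It was at 299 and 297 CPM in the C2C12 controls and 174 and 179 CPM after the siRNA (log2 fold change -0.76 ± 0.07, adjusted p = 8.93e-07 by edgeR).

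Gpi1 also fell in primary myoblasts. It was at 546 and 421 CPM in the controls and 380 and 253 CPM after the siRNA (log2 fold change -0.63 ± 0.13, adjusted p = 0.00629). It was the only gene called in both cell types among the lists of creatine, purine, glycogen, glycolysis and fatty acid genes.

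In primary myoblasts Slc2a4, the insulin-responsive glucose transporter of muscle, rose. It was at 5.75 and 2.79 CPM in the controls and 11.9 and 9.06 CPM after the siRNA (log2 fold change 1.35 ± 0.20, adjusted p = 0.000656). Of the 19 genes of glycolysis and glucose uptake Slc2a4 and Gpi1 were the 2 called, beside 3.17% of all genes. The median log2 fold change of the 19 was 0.06, beside 0.01 for all genes tested.

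Both enzymes of creatine synthesis rose in primary myoblasts. Gatm, which makes guanidinoacetate, was at 178 and 67.9 CPM in the controls and 278 and 144 CPM after the siRNA (log2 fold change 0.86 ± 0.13, adjusted p = 0.000656). Gamt, which methylates it to creatine, was at 14.5 and 11.9 CPM and 24.4 and 24.1 CPM (0.89 ± 0.13, adjusted p = 0.00073). These were the 2 called of the 7 genes tested, beside 2.87% of all genes called higher, and the creatine transporter gene Slc6a8 (-0.019 ± 0.11) did not pass.

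Single genes were called in the next lists in primary myoblasts, where 2.87% of all genes were called higher. Of 6 genes of the purine list, Prkag3, a muscle subunit of the AMP-activated kinase, rose in primary myoblasts by a log2 fold change of 1.04 ± 0.21 (adjusted p = 0.00641), from 38.0 and 6.69 CPM to 51.4 and 23.9 CPM. Of 13 genes of glycogen metabolism, Ppp1r3a, which targets a phosphatase to glycogen in muscle, rose by 1.29 ± 0.26 (adjusted p = 0.00629), from 5.54 and 0.7804 CPM to 10.3 and 3.38 CPM. In both genes the siRNA sample of replicate 2 lay below the control of replicate 1.

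Of 8 genes tested of a list of globins and of oxygen and fatty acid supply, 4 were called higher in primary myoblasts, beside 2.87% of all genes, and the median log2 fold change was 0.76. These were Cd36, a fatty acid transporter (1.05 ± 0.12, adjusted p = 0.000121), Fabp3, the heart and muscle fatty acid binding protein (0.90 ± 0.12, adjusted p = 0.000239), Cox8b, a muscle subunit of cytochrome oxidase (0.86 ± 0.17, adjusted p = 0.00659), and Cpt1b, the muscle carnitine palmitoyltransferase (0.84 ± 0.19, adjusted p = 0.0138). In C2C12, 1 of 4 tested was called, the lipase gene Lpl (0.86 ± 0.24, adjusted p = 0.0339). The lists were set up with earlier results of these data known, and their counts are no independent evidence of a direction.

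Beside these responses, Myog was called higher after the siRNA in both cell types, by 1.03 ± 0.12 in C2C12 (adjusted p = 2.28e-05) and by 0.89 ± 0.16 in primary myoblasts (adjusted p = 0.00266). In primary myoblasts Mef2c rose (0.74 ± 0.16, adjusted p = 0.0116) and Myf5 fell (-0.78 ± 0.16, adjusted p = 0.00679). Of 10 proliferation markers 0 were called in either cell type, beside 1.57% and 3.17% of all genes, with medians of -0.29 and -0.30. The part of differentiation in the higher levels of the muscle enzymes was not tested.

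The same pathway lists set the controls of the cell types apart to different degrees. Of 8 genes of globins and of oxygen and fatty acid supply 7 were called higher in primary myoblast controls, beside 17.5% of all genes called higher. Among them Fabp3 had a log2 fold change of 5.47 ± 1.04 (adjusted p = 0.0193), while Cox6a2, Cox8b and Cd36 had 0 to 3 reads in each C2C12 control and 95 to 495 reads in each primary myoblast control. Of 19 glycolysis genes 7 were called higher and 4 lower, beside 17.5% and 15.8% of all genes, among them Slc2a4 (2.66 ± 0.49), Hk2, a hexokinase of muscle (2.55 ± 0.16), Ldhb, a lactate dehydrogenase subunit (2.22 ± 0.20), and Aldoc, the brain aldolase (-3.48 ± 0.35). Of 13 glycogen genes, Gys1, muscle glycogen synthase, was higher (1.98 ± 0.35) as was Ppp1r3a, which had 0 reads in C2C12, while Pygb, the brain phosphorylase (-0.94 ± 0.16), and Phkb, a subunit of phosphorylase kinase (-1.64 ± 0.36), were lower. Ppp1r3a, Cox6a2, Cox8b and Cd36 had too few reads to be tested within C2C12, so their direction between the controls was set by the filter. Of the 8 genes of globins and of oxygen and fatty acid supply, only 4 were tested within C2C12. The other genes of that list could only be higher, so its count of 7 called is in part a description. These contrasts rest on 2 samples per group, as for the 10 genes.

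Car3 is 1 of 16 carbonic anhydrase genes that were followed. Among the other 15, of which 8 were tested, 1 was called after the siRNA in C2C12 and 0 in primary myoblasts, beside 1.57% and 3.17% of all genes. The called gene was Car2, a cytosolic form with high activity, at 5.32 and 9.63 CPM in the C2C12 controls and 11.3 and 11.4 CPM after the siRNA (log2 fold change 0.61 ± 0.16, adjusted p = 0.0285). The log2 difference was 1.07 in pair 1 and 0.24 in pair 2.

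Car13, another cytosolic form, was lower in primary myoblasts than in C2C12. It was at 148 and 179 CPM in the C2C12 controls and 29.1 and 27.2 CPM in the primary myoblast controls (log2 fold change -2.53 ± 0.17, adjusted p = 0.0033). After the siRNA it was at 185 and 213 CPM in C2C12 (0.28 ± 0.07, adjusted p = 0.0124, under 1.5-fold) and at 30.9 and 28.1 CPM in primary myoblasts (0.07 ± 0.12, adjusted p = 0.836).

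Others differed in the same direction. Car5b, a mitochondrial form, was at 53.5 and 58.3 CPM in the C2C12 controls and 6.91 and 2.60 CPM in primary myoblasts (log2 fold change -3.55 ± 0.49, adjusted p = 0.00997). Of the 9 tested between the controls, Car5b, Car9, Car11 and Car13 were called lower and Car12 higher in primary myoblasts, beside 15.8% and 17.5% of all genes. Car12 had 4 and 5 reads in the C2C12 controls, and Car11 had 5 and 2 in the primary myoblast controls. Each entered the fit only through the reads of the other cell type, so its direction was fixed beforehand and its call is a description. Car4 had 0 reads in all 8 samples, which at 3 reads allows a level of up to 0.110 to 0.143 CPM by sample.

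**Figure D5:**
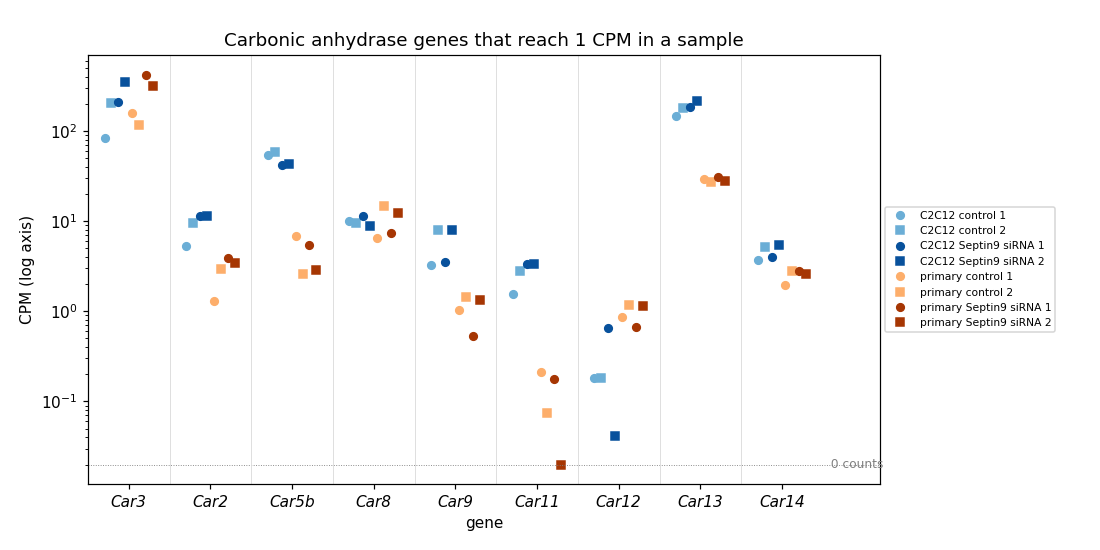
CPM of Car3 and of the other carbonic anhydrase genes that reach 1 CPM in a sample, on a log axis, in the 8 samples (colours for cell type and siRNA, circles for replicate 1, squares for replicate 2, dotted line for 0 counts). Car3 lies between 83.5 and 423 CPM over both cell types, whereas Car13 is at 148 to 213 CPM in C2C12 and 27.2 to 30.9 CPM in primary myoblasts.

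The genes whose pattern was most like that of Car3 over the 8 samples were Gprasp2, Susd5, Mir675, H19 and Hey1. Likeness was the root mean square difference of log2 CPM after centring within each cell type, over 12852 genes with a mean of at least 1 CPM in both cell types, and it was 0.21, 0.25, 0.26, 0.27 and 0.27 for these 5. H19, a long noncoding RNA of an imprinted locus, was at 333 and 787 CPM in the C2C12 controls and 805 and 1190 CPM after the siRNA. In primary myoblasts it was at 8568 and 7257 CPM in the controls and 14230 and 11802 CPM after the siRNA. Mir675 lies within H19 and shares its reads.

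The measure uses the siRNA response of Car3 and the difference between the experiments, so these genes are a description. Their fitted log2 fold changes after the siRNA were 0.69 to 0.92 in C2C12 and 0.72 to 1.19 in primary myoblasts, all below those of Car3. Of the 10 genes Pygm was the nearest, at rank 14 with 0.34, and Pgam2 (0.54), Ckb (0.57) and Adssl1 (0.57) followed between ranks 332 and 509, with Eno3 at rank 4961 (0.73). The other 4 did not reach a mean of 1 CPM over the C2C12 samples.

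Some of the counts can hold reads of other transcripts. Ckm (chr7:19411094-19421583) overlaps the antisense transcript A930016O22Rik over 3952 bases, and the strand setting of the counting is not given in the sources used here. That transcript had 1028 and 293 reads in the primary myoblast controls and 1482 and 680 after the siRNA, and its part in the reads of Ckm was not tested. Eno3 (chr11:70653125-70662513 in RefSeq) spans 3675 bases of Pfn1, the profilin gene, and is listed a second time with other counts, at 385 and 309 CPM in the C2C12 controls and 933 and 532 CPM in primary myoblast controls. Its second entry had log2 fold changes after the siRNA of 0.19 ± 0.07 in C2C12 and 0.35 ± 0.14 in primary myoblasts, so the entries agree within their errors. Between the experiments in primary myoblasts the second entry was called lower (-0.77 ± 0.14, adjusted p = 0.00032), whereas the first was not.

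Pygm is also listed a second time, with identical counts in every sample, and was counted as 1 gene. Mb (chr15:77015487-77050668) overlaps Apol6 over 5619 bases, but Apol6 had 14 to 40 reads per sample. Car3 (chr3:14863538-14872381) overlaps Gm41999, which had 1 to 10 reads per sample. Ckb (chr12:111669355-111672338), Pygm (chr19:6384408-6398464), Adssl1 (chr12:112620047-112641355) and Pgam2 (chr11:5801637-5803796) overlap no other gene in either annotation, and Ckmt2 (chr13:91853386-91876923) and Ampd1 (chr3:103073897-103099720) overlap none in RefSeq.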

How the data were processed

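Raw counts per gene of all 8 samples were used as the authors deposited them, without normalization. Per the paper's methods and the submitters' processing notes, paired-end reads were mapped to GRCm38.p6 with STAR 2.7.2 and counted with featureCounts 2.0.1. The authors also deposited a normalized signal for each cell type, made from ComBat-Seq adjusted counts and DESeq2 1.40.1 size factors, and whole counts were recovered from it (100% of values whole within 0.01) for an alternative only. The paper names Gencode as annotation, but 100% of the gene names are RefSeq symbols.

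The files hold 16 broken lines, which were left out, and 2379 of the 42391 entries are further copies of another gene, which were kept in the fits. Samples were grouped by their labels. The fits used edgeR 4.0.16 (R 4.3.3), after filterByExpr removed low genes and TMM set the scaling, with the quasi-likelihood test and Benjamini-Hochberg adjustment. The replicate number was a block, since the methods state independent experiments and remove their effect. Samples of 1 number deviated together (correlation 0.767 over 14385 genes in C2C12 and 0.854 over 15180 in primary myoblasts). Controls were compared without a block. Replicates of a group differed by more than counting noise. An exact test of 2 against 2 samples cannot go below p = 0.333. The log2 differences within pairs used 2 added counts. Exon lengths were from GENCODE M21. The scripts were tested on simulated counts.

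The genes and lists were chosen with earlier results of these data known. Named are Septin9, the 10 genes, up to 4 called genes per list and comparison with the largest change, the other forms of the reactions and the 5 genes most like Car3. Genes named beyond that (Car4, Car9, Car13 and Slc6a8 after siRNA, and the markers Pparg, Adipoq, Plin1, Retn, Myh11 and Kcnj8) were chosen after their values were seen. Alternatives were other scaling, no filter, adjusted p alone, DESeq2 1.42.0, no block, all samples in 1 fit, the batch-corrected counts and leaving out each sample.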

Additional observations from a re-analysis of the deposited data

How the results depend on the processing

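The calls rest on 2 samples per group, and the depth leaves Ckm, Mb and Pgam2 in C2C12 at few reads. Of the fold changes of the 10 genes under all alternatives, 470 kept direction and side of the threshold, 51 lost and 13 gained the call, and 10 reversed. For Septin9 siRNA in C2C12, 248 genes were called, and 99 by DESeq2, 134 by DESeq2 on the batch-corrected counts, 83 in a fit of all 8 samples, 1068 by adjusted p alone, 0 without the replicate block and 86 to 206 with a sample left out. Of the 10 genes 1 was called, 2 by library size alone or without a filter, 3 by adjusted p alone, 0 without the replicate block and 1 to 2 with a sample left out. In primary myoblasts 543 genes were called (492 higher and 51 lower), and 260 with RLE size factors, 206 by library size alone (165 higher and 41 lower), 854 by adjusted p alone, 226 by DESeq2, 331 on the batch-corrected counts, 0 without the replicate block and 341 to 952 with a sample left out. Of the 10 genes 8 were called, 4 by library size alone, 0 without the replicate block and 4 to 8 with a sample left out. The interaction was called for 0 genes, for 199 without a filter (Adssl1 among them, 1 of the 10), 23 by DESeq2, 0 without the replicate block and 46 to 450 with a sample left out (0 to 2 of the 10). Between the controls 5699 genes were called, 8716 in a fit of all 8 samples and 512 to 4760 with a sample left out, and 0 to 8 of the 10. With a replicate block 4326 genes and 8 of the 10 were called, with Eno3 in place of Ckb. Between the experiments 1788 genes were called in C2C12 (5638 by adjusted p alone, 1134 by DESeq2, 1111 to 1717 with a sample left out) with 4 of the 10 (2 by DESeq2), and 2714 in primary myoblasts (4187 by adjusted p alone, 1646 by DESeq2) with 8 of the 10 (5 to 8 with a sample left out). The log2 fold changes that reversed were Pgam2 after siRNA in C2C12 without either sample of replicate 2 (range with a sample left out -0.041 to 0.83), Pygm in the interaction without either primary myoblast sample of replicate 1 (range -0.41 to 0.23), Ckb between the experiments in C2C12 without either control (range -0.095 to 0.32), and Car3 between the controls. The value of Car3 was 0.064 with a replicate block, 0.045 in a fit of all 8 samples and -0.58 to 0.71 with a sample left out. Apart from the construction of the left-out fits, the cause was not tested.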
